A study of Mus musculus with 48 samples.

Results

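The expression of 10 genes best known from mast cells is described across mouse sarcomas, 10 of the 36854 genes in the deposited count table and all 10 of the names sought. They are the chymase-type proteases Mcpt1, Mcpt2, Mcpt4 and Cma1, the tryptases Tpsb2 and Tpsab1, the carboxypeptidase Cpa3, the receptor tyrosine kinase Kit and the IgE receptor chains Fcer1a and Ms4a2. The set was chosen by gene name, and it was selected on an earlier reading of these data in which Mcpt2 was lower in primary tumours given 20 Gy with anti-PD-1 than in primary tumours given isotype without radiation. Values for that pair of groups are therefore given as a description, with no test.

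Messenger RNA was sequenced in bulk from 48 tumours in 8 groups, of which all came from mice of the 129/SvJae background. The 32 primary sarcomas were started at 6 to 10 weeks of age in the gastrocnemius of p53FL/FL mice, by an adenovirus carrying Cre recombinase, which deletes the floxed p53 alleles in infected cells, and then 300 µg of the carcinogen MCA. The 16 allografts were grown from 50000 cells of 1 p53/MCA sarcoma line in the same muscle of syngeneic mice, so their tumour cells all descend from that line; no age is given for these hosts. At about 150 mm3 each mouse received 200 µg of the anti-PD-1 antibody muDX400, which blocks an inhibitory receptor of T cells, or an isotype control, followed at once by 0 or 20 Gy to the hind limb, and tumours were taken 3 days later. Each combination of dose and antibody had 4 allografts and 8 primary tumours. The sample titles carry a different identifier for each tumour; nothing more is said of how the tumours of a group were related, so p-values measure the spread between these tumours. Total counts per tumour ran from 31.8 M to 54.0 M with a median of 41.2 M. Levels are given as CPM, read counts rescaled to a common library total, after TMM scaling, which corrects for differences in RNA composition.

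Mast cells are granulated leukocytes that mature in tissues under stem cell factor, the ligand of Kit, and store proteases bound to heparin in their granules. In mice, connective tissue mast cells of skin and muscle are known for Mcpt4, Cma1 (mast cell protease 5), the tryptases and Cpa3, whereas Mcpt1 and Mcpt2 are known from the mucosal mast cells of the gut and airways. Allergen bound to IgE on the FcεRI receptor, whose alpha chain is Fcer1a and beta chain Ms4a2, sets off release of the granules. Kit is also made by other cells, such as melanocytes and blood progenitors.

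In the mm10 annotation of GENCODE M21 the 4 chymase-type genes lie within 120.9 kb of chromosome 14: Cma1 at chr14:55941451-55944675, Mcpt1 at chr14:56017971-56020384, Mcpt2 at chr14:56042041-56044642 and Mcpt4 at chr14:56059629-56062313. The tryptases lie within 25.9 kb of chromosome 17, Tpsab1 at chr17:25343245-25345562 and Tpsb2 at chr17:25366305-25369098. Cpa3 lies at chr3:20215620-20242181, Kit at chr5:75574916-75656722, Fcer1a at chr1:173221284-173227214 and Ms4a2 at chr19:11615523-11623719. No exon of the 10 genes overlaps an exon of another gene. Of all 50-base windows of each gene's longest transcript, none in Mcpt1, Mcpt2, the tryptases, Cpa3, Kit or Fcer1a was found in a transcript of another gene, against 5.48% in Mcpt4 (shared with Cma2 and Mcpt9), 5.38% in Cma1 (Gm48934) and 2.69% in Ms4a2 (Ms4a4b). How many reads of those 3 genes this touches was not measured.

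RefSeq start regions (GRCm38.p6, the build of mm10) were at hand for 7 of the 10 genes, not for Mcpt2, Tpsb2 and Tpsab1. The 250 bases before the start are printed for Mcpt1 and Mcpt4, the pair most alike in this window and far apart in level in primary tumours, and for Cpa3, the gene against which Mcpt2 is measured further on. They cover chr14:56017714-56017963 on the plus strand, chr14:56062311-56062560 on the minus strand and chr3:20242182-20242431 on the minus strand, each written 5′ to 3′ along the gene, with matches to GATAA on either strand and to TATAAA on the written strand in capitals.
Mcpt1: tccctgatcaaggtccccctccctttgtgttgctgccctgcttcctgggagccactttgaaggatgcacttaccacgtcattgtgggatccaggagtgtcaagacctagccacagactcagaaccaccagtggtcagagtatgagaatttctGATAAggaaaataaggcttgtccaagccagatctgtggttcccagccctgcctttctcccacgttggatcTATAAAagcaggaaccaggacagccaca
Mcpt4: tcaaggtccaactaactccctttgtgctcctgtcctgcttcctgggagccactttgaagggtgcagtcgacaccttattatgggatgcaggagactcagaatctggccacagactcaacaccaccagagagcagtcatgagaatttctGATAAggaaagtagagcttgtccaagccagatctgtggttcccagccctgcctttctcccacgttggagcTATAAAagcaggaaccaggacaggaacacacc
Cpa3: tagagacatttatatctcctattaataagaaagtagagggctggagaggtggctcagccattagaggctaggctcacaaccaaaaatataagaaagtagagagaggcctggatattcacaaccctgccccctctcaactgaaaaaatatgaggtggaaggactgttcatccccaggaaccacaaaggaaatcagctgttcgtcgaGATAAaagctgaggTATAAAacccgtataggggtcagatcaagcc

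Aligned end to end, the Mcpt1 and Mcpt4 windows were identical at 81.5% of alignment columns, against 38.6 to 50.9% for the other 20 pairs of the 7 windows. In both, a TATAAA match lay close to the start (28 and 32 bases before it, counted from the first base of the match) and a GATAA match further out (98 bases in Mcpt1). GATAA, the core that GATA factors recognise, was found in 6 of the 7 windows, and in 23.0% of 27025 RefSeq windows of the same 250 bases, 1 per gene. TATAAA was found in 4 of the 7 (Mcpt1, Mcpt4, Cpa3 and Fcer1a) and in 8.12% of all. These matches describe letters only.

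Every tumour held reads of the connective tissue mast cell genes. Tpsb2, Tpsab1, Cpa3 and Kit were at or above 1 CPM in 48 of 48 tumours, and Mcpt4 and Cma1 in 46 of 48. Per kilobase of exon, Tpsab1, the gene of the alpha/beta tryptase, had the highest median in all 8 groups, from 4.66 CPM per kb in allografts after 20 Gy with isotype to 49.0 CPM per kb in unirradiated primary tumours with isotype. Tpsb2, the other tryptase, was second in the 4 unirradiated groups and in both irradiated primary groups. Ranges of neighbours in this order overlapped: in the unirradiated primary tumours with isotype, Tpsab1 spanned 7.86 to 189 CPM per kb, Tpsb2 3.91 to 120 and Mcpt4 2.83 to 122.8. Ms4a2 was lowest of the 10 per kilobase in the 4 allograft groups and Mcpt1 in the 4 primary groups.

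**Figure D1:**
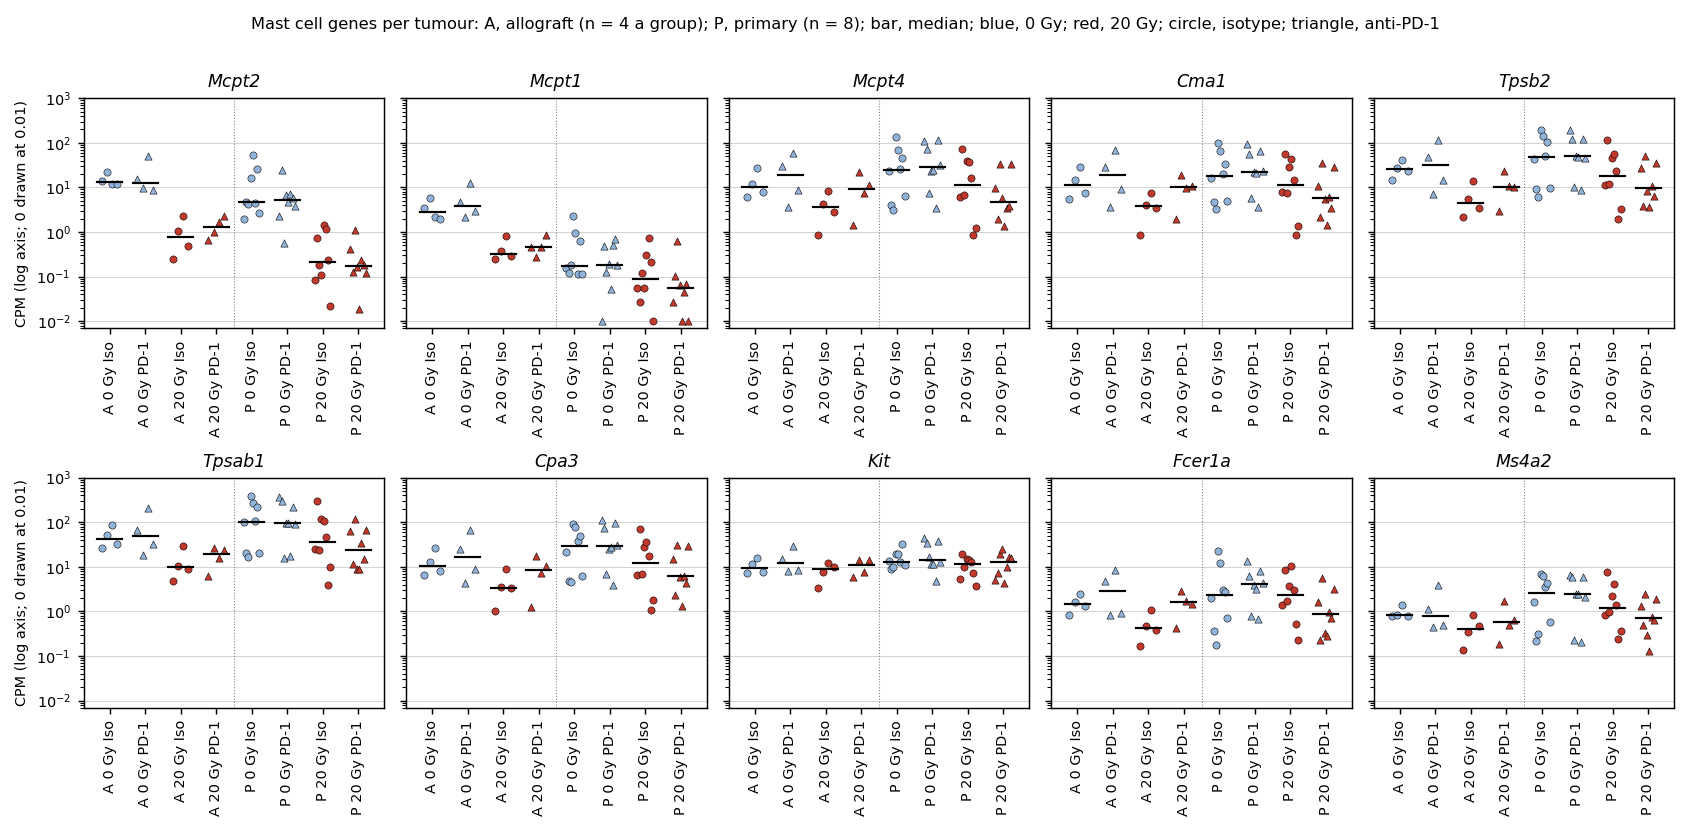
TMM-scaled CPM of each of the 10 genes (log axis, 0 drawn at 0.01) in 48 tumours by group; points are tumours and bars are group medians. Mcpt2 lies between 8.78 and 51.7 CPM in unirradiated allografts and between 0.248 and 2.28 CPM after 20 Gy, whereas in the Kit panel the group medians lie between 8.77 and 14.6 CPM and the groups overlap.

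Mcpt2, a chymase-family protease of mucosal mast cells, was the gene on which the set was chosen, so the allografts, which played no part in that choice, are given first. Without radiation Mcpt2 stood at 13.9, 22.2, 11.9 and 12.2 CPM in the 4 allografts with isotype and at 15.2, 9.76, 51.7 and 8.78 CPM in the 4 with anti-PD-1. After 20 Gy it stood at 0.248, 1.05, 2.28 and 0.491 CPM with isotype and at 0.651, 0.981, 1.64 and 2.25 CPM with anti-PD-1. All 8 irradiated allografts lay below all 8 unirradiated ones. Mcpt2 fell by 3.86 ± 0.72 on the log2 scale with isotype (SE, n = 4 and 4, edgeR adjusted p = 0.00698), a 14.5-fold lower level. With anti-PD-1 it fell by 3.91 ± 0.72 (n = 4 and 4, edgeR adjusted p = 0.0110).

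Mcpt1, the other mucosal chymase (beta-chymase), also fell in the allografts. It stood at 3.39, 5.80, 2.18 and 1.91 CPM without radiation and at 0.248, 0.368, 0.798 and 0.284 CPM after 20 Gy, both with isotype. With anti-PD-1 it stood at 4.75, 2.16, 12.7 and 2.96 CPM without radiation and at 0.469, 0.280, 0.453 and 0.865 CPM after 20 Gy. The irradiated allografts again all lay below the unirradiated ones. Of the 10 genes, 3 with isotype (Mcpt1, Mcpt2 and Tpsb2) and 2 with anti-PD-1 were lower without overlap, beside 5.21% and 3.74% of all genes averaging 1 CPM or more in those tumours. The fall was 7.66-fold with isotype (log2 fold change -2.94 ± 0.61, edgeR adjusted p = 0.0127) and 10.6-fold with anti-PD-1 (-3.41 ± 0.62, edgeR adjusted p = 0.0103; SE, n = 4 and 4 in both). Reads were few after radiation, 11 to 33 per tumour for Mcpt1 and 13 to 86 for Mcpt2.

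Mcpt1 and Mcpt2 were the 2 of 10 genes called lower (adjusted p below 0.05) in each of these comparisons, where 0.744% of all genes tested were called lower with isotype and 0.828% with anti-PD-1. Both were also lower in allografts given 20 Gy with anti-PD-1 than in those given isotype alone, by -3.41 ± 0.70 for Mcpt2 (edgeR adjusted p = 0.00703) and -2.65 ± 0.60 for Mcpt1 (0.0119), where 2.23% of all genes were called lower; that comparison shares its groups with those just given. The other 8 genes ran there from -1.42 ± 0.72 (Tpsab1, edgeR adjusted p = 0.248) to 0.10 ± 0.74 (Fcer1a, 0.957). In the isotype comparison the identifiers in the sample titles begin with 5 in all 4 unirradiated allografts and with 4 in 3 of the 4 irradiated ones. With that digit in the fit the log2 fold changes were -3.10 for Mcpt2 (edgeR adjusted p = 0.104) and -2.49 for Mcpt1 (0.141), so neither was called; the 1 irradiated allograft whose identifier begins with 5 stood at 1.05 CPM for Mcpt2 and 0.368 CPM for Mcpt1, below the 4 unirradiated ones. Mcpt1 also missed the threshold without the unirradiated isotype allograft 2 (edgeR adjusted p = 0.0502) and with all 48 tumours in 1 fit (0.187). Under anti-PD-1 the digit left both called (0.0112 and 0.0138), whereas a fit of those 2 groups alone (0.0674 for Mcpt2 and 0.0699 for Mcpt1) or of all 48 tumours together (0.0646 and 0.123) did not call them.

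In the primary tumours Mcpt2 ranged more widely. Without radiation its lowest, median and highest levels were 1.93, 4.62 and 52.3 CPM with isotype and 0.571, 5.35 and 24.1 CPM with anti-PD-1 (n = 8 each). After 20 Gy they were 0.0224, 0.211 and 1.45 CPM with isotype and 0.0189, 0.172 and 1.08 CPM with anti-PD-1, which is 1 to 58 reads per tumour. The 8 tumours given 20 Gy with isotype and the 8 given 0 Gy with anti-PD-1 had no part in the choice of the set. Of the irradiated ones, 5 of 8 lay below the lowest unirradiated tumour, and the other 3 overlapped only with that tumour, at 0.571 CPM. Between these groups Mcpt2 was 13.4-fold lower after radiation (log2 fold change -3.75 ± 0.83, n = 8 and 8, edgeR adjusted p = 0.00439). It was the 1 gene called among the 10, where 2.90% of all genes were called lower. The other 9 ran from -1.14 ± 0.78 (Tpsb2, edgeR adjusted p = 0.385) to -0.43 ± 0.83 (Fcer1a, 0.780). Antibody and dose differ together in this comparison.

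The remaining dose comparisons of primary tumours use groups that took part in the choice of the set and are given without a test. In primary tumours with isotype the difference after 20 Gy was -4.77 ± 0.87, with no overlap between the groups (0.519% of genes averaging 1 CPM or more were lower without overlap), and with anti-PD-1 it was -4.54 ± 0.87, with 7 of 8 irradiated tumours below the lowest unirradiated one. Of all genes, 6.64% and 1.86% were called lower in these comparisons. The remaining 9 genes ran from -1.48 (Mcpt1) to -0.39 (Ms4a2) with isotype and from -2.01 (Mcpt4) to -0.68 (Kit) with anti-PD-1. Between the groups of the choice itself, combination and isotype without radiation, the log2 fold change of Mcpt2 was -5.57 ± 0.91 (47.4-fold), where 4.98% of all genes were called lower. Differences of the remaining 9 genes there ran from -2.27 (Mcpt1) to -0.25 (Kit).

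**Figure D2:**
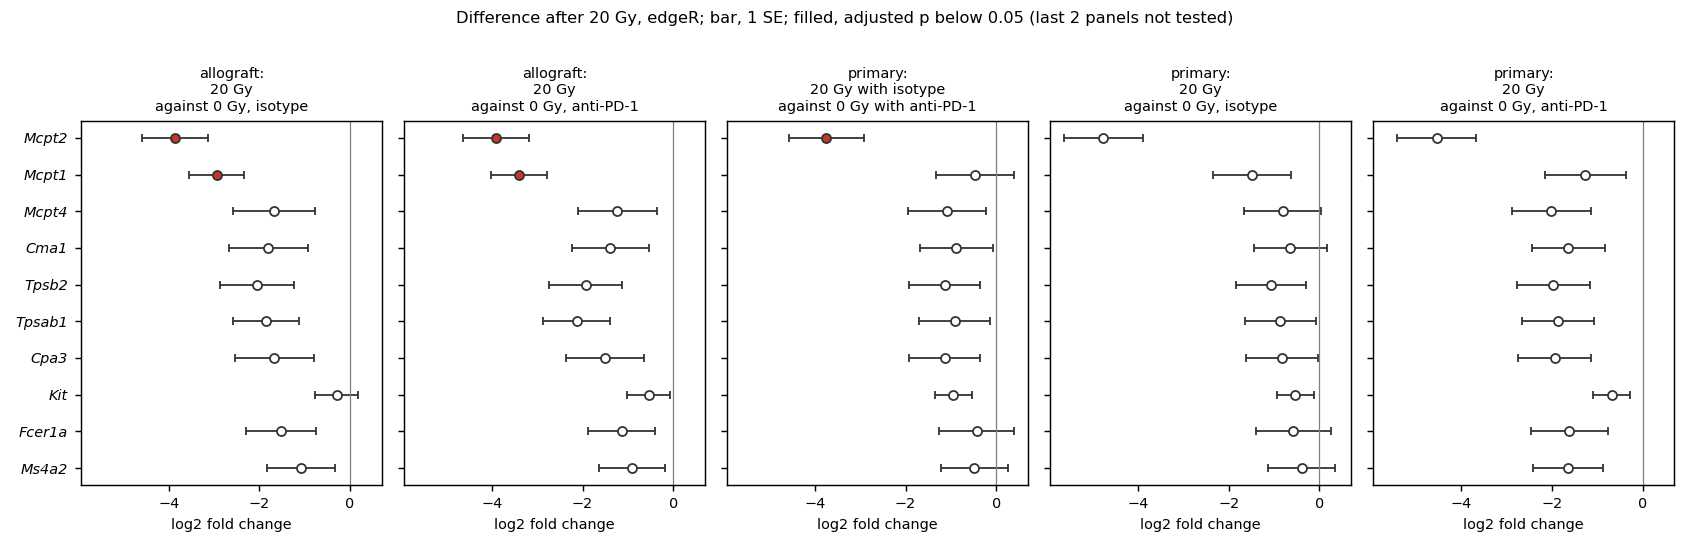
Log2 fold change after 20 Gy (point, bar 1 SE) of the 10 genes in 5 comparisons, from edgeR; filled points in the first 3 panels have an adjusted p below 0.05. Mcpt2 lies between -3.75 and -4.77 in all 5 panels; the last 2 panels use groups on which the set was chosen and carry no test, so their points are open.

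Mcpt1 was scarce in primary tumours. It reached 1 CPM in 1 of 32 primary tumours, the unirradiated isotype tumour 4 at 2.24 CPM, and had a median of 0.168 CPM in that group and 0.184 CPM without radiation with anti-PD-1. In 4 of the 32 no read was counted, which allows up to 0.0567 to 0.0736 CPM in those libraries, a limit for counting error only. Between primary tumours and allografts without radiation, both with anti-PD-1, all 8 primary tumours (0 to 0.695 CPM) lay below the 4 allografts (2.16 to 12.7 CPM). The share of all genes without overlap was not computed between these groups. The level in primary tumours was 19.6-fold lower there (log2 fold change -4.29 ± 0.75, edgeR adjusted p = 0.00555). Mcpt1 was the 1 call among the 10 genes, where 3.99% of all genes were called lower. Identifiers begin with 5 in 3 of these 4 allografts and in 1 of these 8 primary tumours, so digit and kind nearly coincide. With isotype they begin with 5 in all 4 allografts and with 4 in all 8 primary tumours. No fit between kinds with that digit is given, for any gene. The allografts descend from 1 line, and differences between lines are not covered. With isotype 7 of 8 primary tumours lay below the allografts (log2 fold change -2.56 ± 0.78), where 10.0% of all genes were called; that primary group took part in the choice of the set, so no test is given. Without the primary tumour 4 just named, the log2 fold change was -3.36. The other 9 genes ran from -1.61 ± 0.72 (Mcpt2, edgeR adjusted p = 0.184) to 1.12 ± 0.89 (Ms4a2, 0.485) with anti-PD-1 and from -0.11 (Mcpt2) to 1.80 (Fcer1a) with isotype.

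After 20 Gy with isotype edgeR called none of the 10 between tumour kinds, where 4.76% of all genes were called. Of the 10, 7 had an unadjusted p below 0.05 and DESeq2 called 5, namely Cma1, Tpsb2, Cpa3, Fcer1a and Ms4a2, all higher in primary tumours by 2.33 to 2.83 on the log2 scale. Over the 17624 genes tested 3508 had such a p, and DESeq2 called 1875. With anti-PD-1 the irradiated primary tumours are a group on which the set was chosen, so no test is given; the difference for Mcpt2 was -2.28, where edgeR called 0.00566% of all genes. The skeletal muscle list, 10 genes of muscle fibres, varied within both tumour kinds: its summed level ran from 84.5 to 21300 CPM in allografts and from 14.8 to 84700 CPM in primary tumours. With the mean of that list in the fit, Mcpt1 was lower in unirradiated primary tumours by -5.04 with anti-PD-1 (edgeR adjusted p = 0.0102), and the difference with isotype was -3.68.

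Mcpt4 and Cma1, the main chymases of connective tissue mast cells, varied widely inside every group. In the unirradiated allografts Mcpt4 stood at 5.98, 12.0, 27.5 and 8.08 CPM with isotype and at 29.7, 3.57, 59.4 and 8.66 CPM with anti-PD-1. After 20 Gy it stood at 0.839, 4.34, 8.37 and 2.84 CPM with isotype and at 1.41, 21.8, 7.34 and 11.4 CPM with anti-PD-1. With isotype 3 of 4 irradiated allografts lay below the unirradiated ones, and with anti-PD-1 the groups overlapped for 3 of 4. The differences of -1.68 ± 0.90 (edgeR adjusted p = 0.352) and -1.23 ± 0.88 (0.483) did not pass. Cma1 gave -1.80 ± 0.87 and -1.39 ± 0.85 in the same comparisons (0.290 and 0.398). In the primary tumours Mcpt4 had a lowest, median and highest level of 3.13, 24.5 and 136.1 CPM without radiation and 0.852, 11.6 and 71.1 CPM after 20 Gy, both with isotype, a 43.4-fold and an 83.4-fold range within a group.

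The tryptases, serine proteases that act as heparin-bound tetramers, gave the largest differences among the uncalled genes of the 2 allograft dose comparisons. Tpsb2 stood at 14.6, 27.4, 41.5 and 23.2 CPM without radiation and at 2.17, 5.59, 14.0 and 3.54 CPM after 20 Gy, both with isotype. These groups did not overlap, yet the difference of -2.05 ± 0.81 did not pass (edgeR adjusted p = 0.183). With anti-PD-1 it was -1.93 ± 0.80 (0.196). Tpsab1 with anti-PD-1 stood at 66.7, 18.1, 209 and 32.1 CPM without radiation and at 6.25, 26.8, 15.7 and 23.6 CPM after 20 Gy. Its difference was -2.13 ± 0.74 (edgeR adjusted p = 0.121), and DESeq2 called it (adjusted p = 0.0216). In primary tumours with isotype Tpsab1 had a lowest, median and highest level of 16.5, 102.7 and 394.9 CPM without radiation and of 3.88, 36.1 and 300.1 CPM after 20 Gy.

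Cpa3, the granule carboxypeptidase A, stood at 6.46, 13.1, 27.0 and 8.22 CPM in unirradiated and at 1.03, 3.56, 9.03 and 3.31 CPM in irradiated allografts with isotype (-1.67 ± 0.87, edgeR adjusted p = 0.338). With anti-PD-1 the difference was -1.50 ± 0.86 (0.364). In primary tumours without radiation its lowest, median and highest levels were 4.56, 29.4 and 89.6 CPM with isotype and 3.84, 29.2 and 110 CPM with anti-PD-1. After 20 Gy with isotype they were 1.06, 12.2 and 70.4 CPM. Against the unirradiated tumours with anti-PD-1 that was -1.14 ± 0.79 (edgeR adjusted p = 0.393).

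The receptors had the smallest differences in allografts with isotype. Kit stood at 7.27 to 15.5 CPM in unirradiated allografts with isotype and at 3.40 to 12.4 CPM after 20 Gy (-0.30 ± 0.47, edgeR adjusted p = 0.805), and in the 4 primary groups it had the narrowest spread of the 10, at most 9.01-fold. In primary tumours its median was 13.1 and 14.6 CPM without radiation and 11.4 and 13.2 CPM after 20 Gy, isotype first. Fcer1a, the chain that binds IgE, ran from 0.834 to 2.45 CPM without radiation and from 0.172 to 1.10 CPM after 20 Gy in allografts with isotype (-1.53 ± 0.77, edgeR adjusted p = 0.315). Ms4a2, the beta chain that amplifies the signal, ran from 0.772 to 1.37 and from 0.134 to 0.826 CPM in the same groups (-1.09 ± 0.75, 0.497). With anti-PD-1 the 3 receptor genes differed by -0.54 ± 0.47 (Kit, edgeR adjusted p = 0.577), -1.14 ± 0.74 (Fcer1a, 0.431) and -0.91 ± 0.73 (Ms4a2, 0.541).

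All 10 log2 fold changes were below 0 in the allografts after 20 Gy with either antibody and in primary tumours given 20 Gy with isotype against 0 Gy with anti-PD-1. The medians were -1.74, -1.44 and -0.94, beside 0.00, 0.02 and 0.01 for all genes tested. The 10 genes were measured in the same libraries and are not independent. In bulk RNA fewer mast cells and less of a transcript per mast cell cannot be told apart.

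Antibody against isotype at a fixed dose gave no call by edgeR among the 10 genes in allografts, with none at an unadjusted p below 0.05 and none called by DESeq2. Over all genes edgeR called 0% in each of the 2 allograft and 2 primary comparisons. In allografts all 10 estimates were above 0, between 0.49 and 1.24 without radiation and between 0.29 and 1.63 after 20 Gy. In primary tumours, where each comparison holds a group on which the set was chosen and no test is given, they ran from -1.03 (Mcpt2) to 0.42 (Kit) and from -1.19 (Fcer1a) to 0.28 (Kit). The dose difference with anti-PD-1 less that with isotype was 0.23 ± 1.12 for Mcpt2 in primary tumours, likewise without a test, and 0% of all genes were called.

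The dose differences of the tumour kinds are set side by side without a test, since each contrast includes a primary group on which the set was chosen. The difference in primary tumours less that in allografts was -0.90 ± 1.18 for Mcpt2 and 1.47 ± 1.29 for Mcpt1 with isotype, and -0.64 ± 1.18 and 2.14 ± 1.32 with anti-PD-1. Each of these 4 SEs was above 1 on the log2 scale. Over all genes 0.00517% were called with isotype and 0% with anti-PD-1.

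Within a tumour the connective tissue genes kept nearly fixed proportions. Per 100 Cpa3 reads, Mcpt4 had 55.6 to 152 reads over the 48 tumours, Cma1 53.5 to 158 and Tpsb2 100 to 282, ranges of 2.73-fold to 2.96-fold, while Cpa3 itself ran from 1.03 to 110 CPM. Tpsab1 had 155 to 677, a 4.36-fold range. Fcer1a had 3.90 to 48.9 (12.5-fold) and Ms4a2 3.40 to 22.2 (6.54-fold). Kit was looser, from 22.3 to 680 reads. Mcpt2 had 0.398 to 230 reads per 100 Cpa3 reads, a 578-fold range.

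Mcpt2 relative to Cpa3, a measure chosen after these values were seen, is given as a description. In allografts with isotype it was 215, 170, 43.9 and 149 reads per 100 Cpa3 reads without radiation and 24.1, 29.7, 25.3 and 14.8 after 20 Gy. With anti-PD-1 it was 59.9, 230, 78.1 and 99.7 without radiation and 52.1, 5.69, 23.2 and 21.9 after 20 Gy. Neither pair of groups overlapped. The log2 ratio was lower by -2.45 ± 0.56 with isotype and by -2.37 ± 0.78 with anti-PD-1 (SE, n = 4 and 4). Since the measure was chosen on these values, no test of it is given.

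In the primary tumours the ratio had a lowest, median and highest value of 2.07, 15.0 and 185 without radiation with anti-PD-1 and of 0.398, 2.01 and 22.2 after 20 Gy with isotype. These groups overlapped. The difference in log2 ratio was -2.72 ± 0.93 (SE, n = 8 and 8). An edgeR fit with log2 CPM of Cpa3 as a covariate was likewise added after seeing the data, so no p is given for it. In that fit Mcpt2 differed by -3.16 and -2.88 in the allografts (isotype and anti-PD-1) and by -3.32 in the primary tumours. Mcpt1 differed by -2.35 and -2.58 in the allografts.

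Mcpt1 and Mcpt2 also differed in their proportion to each other, given without a test. Per 100 Mcpt2 reads, unirradiated allografts held 15.6 to 33.7 Mcpt1 reads, and unirradiated primary tumours held 0 to 22.7, with a median of 3.43. After 20 Gy the allografts held 27.5 to 100.0, with a median of 36.7, and the primary tumours had a median of 38.8, with 0 in the lowest. The irradiated values rest on few reads of either gene.

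**Figure D3:**
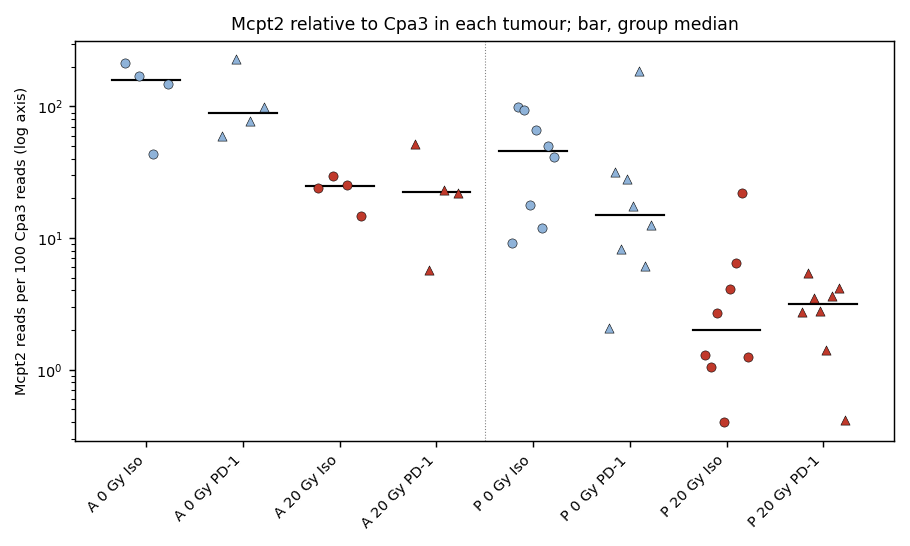
Mcpt2 reads per 100 Cpa3 reads in each of 48 tumours (log axis) by group; bars are medians. Allografts lie at 43.9 to 230 without radiation and 5.69 to 52.1 after 20 Gy, and primary tumours at 2.07 to 185 and 0.398 to 22.2.

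Differences between tumours of the same group were described by Spearman correlations of log2(CPM + 0.1) with the group means removed; points are tumours of bulk RNA that share library depth and tissue content with every gene, and no p is given. Over 32 primary tumours Mcpt4, Cma1, Tpsb2, Tpsab1 and Cpa3 correlated with each other at 0.93 to 0.99, and Fcer1a and Ms4a2 with those 5 at 0.93 to 0.97. Kit correlated with the 5 at 0.61 to 0.72, Mcpt2 at 0.50 to 0.56 and Mcpt1 at 0.21 to 0.26. Mcpt1 and Mcpt2 correlated with each other at 0.72. In the 16 allografts the corresponding values were 0.95 to 0.99 among the 5 proteases, 0.89 to 0.96 for Kit, 0.66 to 0.70 for Mcpt2, 0.41 to 0.50 for Mcpt1 and 0.76 between Mcpt1 and Mcpt2.

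**Figure D4:**
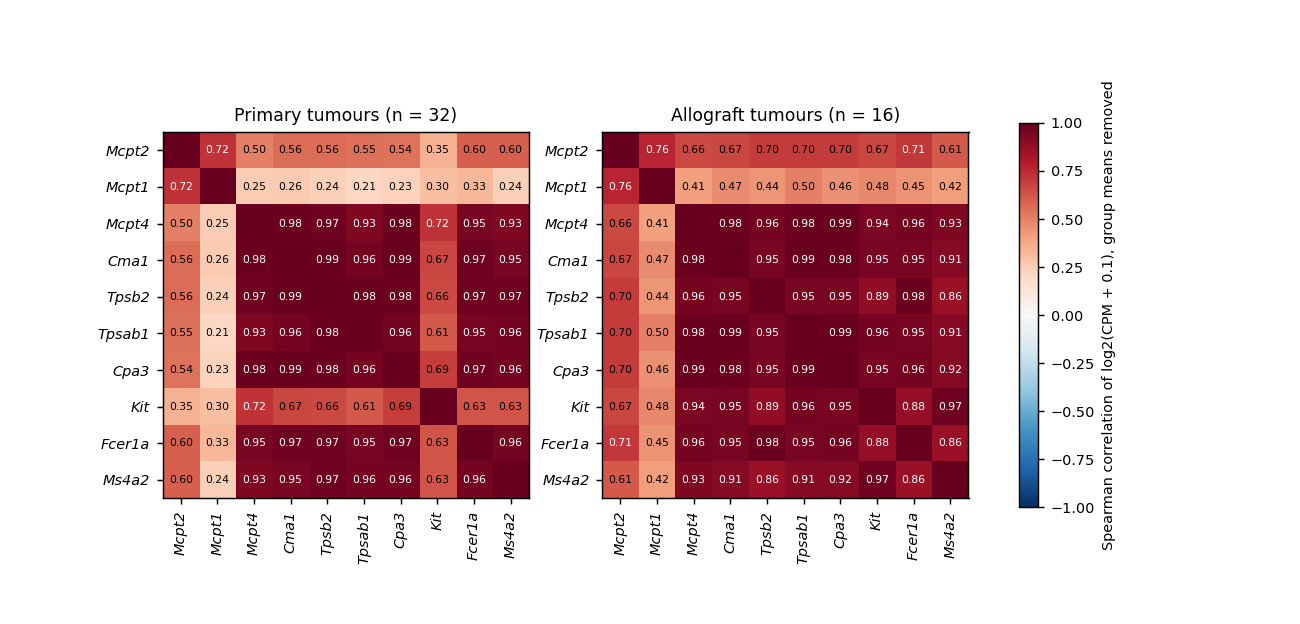
Spearman correlation of log2(CPM + 0.1), group means removed, between the 10 genes in 32 primary tumours (left) and 16 allografts (right). Mcpt4, Cma1, the tryptases, Cpa3, Fcer1a and Ms4a2 form a block above 0.85 in both, and Mcpt1 correlates with Mcpt2 at 0.72 and 0.76. Mcpt2 correlates with the block at 0.50 to 0.60 in primary tumours and at 0.61 to 0.71 in allografts. Kit correlates with it at 0.88 to 0.97 in allografts.

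By the same measure over the 32 primary tumours, among 14350 named genes averaging 1 CPM or more, leaving out the 10 themselves, the genes most like Mcpt2 were Cd200r3 (0.72), Ilvbl (0.67) and Vav3 (0.67), with 0.47, 0.04 and 0.37 in the allografts. Those most like Mcpt1 were Gm5150 (0.81), Abcg3 (0.72) and Pilrb2 (0.71), with -0.04, 0.15 and -0.09 in the allografts. For Mcpt4 they were Atp8b5 (0.94), Mrgprb1 (0.93) and Slc18a2 (0.92), and for Ms4a2 Mrgprb2 (0.98), Mrgprx2 (0.97) and Mrgprb1 (0.97). Cma1, Tpsb2, Tpsab1, Cpa3 and Fcer1a drew their nearest 3 outside the 10 from the same names, at 0.95 to 0.97. For Kit they were Chl1 (0.80), Sytl3 (0.80) and Ggt5 (0.78).

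Of 16 further genes linked to mast cells, covering histamine and serotonin handling, eicosanoid enzymes, transcription factors and receptors, few were called. None of the 15 tested in allografts was called by edgeR after 20 Gy with isotype or anti-PD-1, where 4.40% and 3.13% of all genes were called higher. With isotype 4 of them had an unadjusted p below 0.05 and DESeq2 called 1, and with anti-PD-1 the counts were 6 and 3. Over the 17746 genes tested 3222 and 3458 had such a p, and DESeq2 called 1530 and 1664. The 4 were all above 0, and of the 6, 4 were above 0 and 2 below. The list medians of 0.22 and 0.05 cover differences of both signs, from -1.57 ± 0.82 (Slc18a2, edgeR adjusted p = 0.337) to 0.84 ± 0.37 (Il1rl1, 0.245) with isotype and from -1.37 ± 0.78 (Tph1, 0.362) to 1.40 ± 0.41 (Ltc4s, 0.0694) with anti-PD-1. Mrgprb1 and Mrgprb2, receptors of connective tissue mast cells, gave -1.38 ± 0.81 and -1.41 ± 0.88 with isotype (0.399 and 0.432). In the 3 primary dose comparisons 1 of 16 was called, Srgn, the serglycin core that holds proteases in granules of many leukocytes. It was higher by 2.08 ± 0.40 after 20 Gy with isotype (edgeR adjusted p = 0.000766), by 1.53 ± 0.40 with anti-PD-1 (0.0158) and by 1.53 ± 0.40 between 20 Gy with isotype and 0 Gy with anti-PD-1 (0.0140), where 7.85%, 6.06% and 5.41% of all genes were called higher. Between tumour kinds Ltc4s, leukotriene C4 synthase, was higher in unirradiated primary tumours by 2.98 ± 0.38 with isotype and 3.32 ± 0.36 with anti-PD-1 (0.000801 and 0.000393).

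The genes that carry the IgE receptor signal are shared with other leukocytes, and those called in allografts were higher. Of 12, 5 rose in allografts after 20 Gy with isotype and 3 with anti-PD-1, and none fell, where 4.40% and 3.13% of all genes were called higher and 0.744% and 0.828% lower. Fcer1g, the gamma chain used by several Fc receptors, rose by 1.25 ± 0.28 and 1.37 ± 0.28 (edgeR adjusted p = 0.0196 and 0.0168), and the kinase Lyn by 1.21 and 1.09 (0.0184 and 0.0360). In primary tumours with isotype 7 rose and 1, Plcg1, fell, where 7.85% of all genes were called higher and 6.64% lower. With anti-PD-1 5 rose and none fell (6.06% higher and 1.86% lower over all genes), and between 20 Gy with isotype and 0 Gy with anti-PD-1 the counts were likewise 5 and none (5.41% and 2.90%). Part of a list of 8 leukocyte genes rose beside them, 5 and 2 in the allografts (isotype and anti-PD-1), beside 4.40% and 3.13% of all genes. The T cell gene Cd3e and the B cell gene Cd79a of that list did not. Their means went from 13.0 to 12.3 and from 1.21 to 0.837 CPM after 20 Gy with isotype. With anti-PD-1 they went from 25.1 to 18.4 and from 2.48 to 1.34 CPM. The summed level went from 594 to 1560 CPM over the unirradiated allografts to 1600 to 2530 CPM over the irradiated ones. In primary tumours with isotype it went from 500.2 to 804.3 CPM to 827.2 to 2000 CPM. At least 6 of the 8 genes were above 1 CPM in all tumours of every group. Their part in the levels of the 10 mast cell genes was not tested.

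Related proteases of other leukocytes were measured beside the 10. Gzmb, granzyme B of cytotoxic lymphocytes and a neighbour in the same protease family, rose in allografts with isotype by 1.92 ± 0.48 (edgeR adjusted p = 0.0294) and in primary tumours between 20 Gy with isotype and 0 Gy with anti-PD-1 by 2.63 ± 0.62 (0.00723). It was the 1 gene called in the related protease list there, of 4 tested in allografts and 5 in primary tumours, where 4.40% and 5.41% of all genes were called higher. In allografts with anti-PD-1 edgeR called none of the 4, with 2 at an unadjusted p below 0.05 and 1 called by DESeq2 (3458 and 1664 over the 17746 genes tested). In allografts given the combination, Gzmb (2.52 ± 0.49, 0.00518) and Gzmc (1.94, 0.0370) rose, where 7.43% of all genes were called higher. Of the basophil list, 4 genes tested in allografts and 3 in primary tumours, edgeR called none in the 2 allograft dose comparisons or between 20 Gy with isotype and 0 Gy with anti-PD-1, none had an unadjusted p below 0.05 and DESeq2 called none. In primary tumours with isotype the basophil counts were also 0 by all 3 measures. With anti-PD-1 edgeR called none of the 3 after 20 Gy. Of them 2, with opposite signs, had an unadjusted p below 0.05 and DESeq2 called 1 (4190 and 2188 over the 17770 genes tested). The basophil protease Mcpt8 lay between 0.0377 and 22.6 CPM over all 48 tumours. Its difference was 2.96 ± 1.02 after 20 Gy with anti-PD-1 (edgeR adjusted p = 0.0686) and 1.19 ± 0.98 with isotype (0.439). Between the combination and isotype without radiation, the pair on which the set was chosen, it was 3.52 ± 1.05, given without a test. Cd200r3 went the other way, by -1.80 ± 0.81 with anti-PD-1 (edgeR adjusted p = 0.175), -0.42 ± 0.78 with isotype (0.758) and -1.86 ± 0.82 for that pair. Il3ra gave 0.08, 0.06 and -0.13 in the same order.

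Among growth factors and their receptors, Kitl, which encodes stem cell factor, the ligand of Kit, was the 1 of 9 genes called between 20 Gy with isotype and 0 Gy with anti-PD-1, where 2.90% of all genes were called lower and 5.41% higher. It had a lowest, median and highest level of 35.6, 63.3 and 117.2 CPM after radiation and of 42.9, 115.7 and 208.2 CPM without, a difference of -0.87 ± 0.28 (edgeR adjusted p = 0.0455) between overlapping groups. With isotype it was lower by -0.87 ± 0.28 (0.0315) and with anti-PD-1 by -0.90 ± 0.28 (0.0407). In allografts it gave -0.60 ± 0.26 and -0.55 ± 0.26 and did not pass (0.243 and 0.268). Unirradiated primary tumours had more Kitl than allografts, by 1.59 ± 0.35 with isotype (0.0135) and 1.54 ± 0.34 with anti-PD-1 (0.0145). Of the 10 genes of this list tested in allografts, Tgfb1 was the 1 called with isotype, at 0.70 (0.0236), where 4.40% of all genes were called higher. Csf2rb, the beta chain shared by the IL-3, IL-5 and GM-CSF receptors, rose in primary tumours after 20 Gy by 1.24 ± 0.28 with isotype and 1.40 ± 0.28 with anti-PD-1 (0.00269 and 0.00231).

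Genes of other cells that a limb tumour can hold gave few calls. The melanocyte list, whose cells also express Kit, summed to between 0.254 and 3.01 CPM over all 48 tumours, against 3.40 to 43.6 CPM for Kit itself. The skin epidermis list, 8 keratinocyte genes, summed to between 3.44 and 12.1 CPM. In the 2 allograft dose comparisons and between 20 Gy with isotype and 0 Gy with anti-PD-1, edgeR called no gene of the melanocyte, epidermis, skeletal muscle or adipocyte lists. Of these, none had an unadjusted p below 0.05 and DESeq2 called none, except in the adipocyte list. With isotype in allografts all 6 adipocyte genes tested reached an unadjusted p below 0.05, with 2 called by DESeq2, and the list median was -4.17; over the 17746 genes tested the counts were 3222 and 1530. The summed adipocyte level there ran from 0.0715 to 169.6 CPM without radiation and from 0.155 to 4.93 CPM after 20 Gy; with anti-PD-1 the median sum was 23.1 CPM without radiation and 35.1 CPM after it, and the list median was 0.36. The part of adipose tissue in the mast cell gene levels of the isotype allografts was not tested. In the same 3 comparisons 1 Schwann cell gene was lower with isotype in allografts (Pmp22, -0.49 ± 0.13, edgeR adjusted p = 0.0459), 1 endothelial gene was higher there (Kdr, 1.22 ± 0.28, 0.0204), and 1 of 5 eosinophil genes was higher in the primary comparison (Ccr3, 2.08 ± 0.49, 0.00748). Over all genes 0.744% were called lower and 4.40% higher in those allografts, and 5.41% higher in the primary comparison.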

How the data were processed

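Raw read counts per Ensembl gene were deposited by the authors as 1 table of whole numbers, whose name speaks of a first run. The submitters' processing notes name Trimmomatic 0.36, STAR, HTSeq and the build mm10, with no order; the gene annotation and the strand setting are not given in the sources used here. Libraries were stranded and made from poly(A)-selected RNA with an integrity number above 7, per the labels' protocols. Samples were grouped by the labels, and replicate numbers only name tumours.

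Counts were filtered with filterByExpr, scaled by TMM and tested with edgeR 4.0.16 (quasi-likelihood F test, R 4.3.3), with Benjamini-Hochberg adjustment over all genes tested and calls at an adjusted p below 0.05. The 4 groups of a tumour kind shared 1 fit, comparisons of kinds used the 2 groups compared, and interactions with kind all 48 tumours. All 10 genes passed the filter in every fit. The SE is the log2 fold change divided by the square root of F. Alternatives were DESeq2 1.42.0, its size factors, no filter, robust shrinkage, other sample sets, 2 covariates (identifier digit and muscle list) and each tumour left out. Cpa3 as a covariate was added after the data were seen. The code was tested on simulated data. Ratios of reads were computed in Python 3.11.15 and are given without a test.

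The rule set was to name all 10 genes in every comparison; where a comparison is not given gene by gene, its range over the genes stands instead. Genes of 13 further lists (113 genes, 112 in the table) were to be named only if called. Some are named where uncalled, for likeness, at the ends of a range or after their values were seen. The last kind includes Mrgprb1, Mrgprb2, Cd200r3, Il3ra, Cd3e and Cd79a. The genes and lists were chosen with earlier results of these data known. Reads carry no molecular identifiers, so limits cover counting error only.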

Additional observations from a re-analysis of the deposited data

Results flagged for a closer look

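In 10 of 80 combinations of gene and group, 1 tumour stood apart from the rest of its group by Dixon's gap criterion. For independent, normally distributed values the criterion flags about 1 in 20 groups, or 4 of 80. CPM were used untransformed and the 10 genes are correlated, so the 2 counts cannot be compared directly. All 10 were the highest of their group. For Mcpt2 they were unirradiated allograft 3 with anti-PD-1 at 51.7 CPM (next 15.2), unirradiated primary tumour 5 with isotype at 52.3 CPM (next 25.3), unirradiated primary tumour 2 with anti-PD-1 at 24.1 CPM (next 7.10) and primary tumour 3 given 20 Gy with anti-PD-1 at 1.08 CPM (next 0.406). For Mcpt1 they were unirradiated primary tumour 4 with isotype at 2.24 CPM (next 0.967), primary tumour 6 given 20 Gy with isotype at 0.747 CPM (next 0.310) and primary tumour 3 given 20 Gy with anti-PD-1 at 0.626 CPM (next 0.101). The last of these is the same tumour as for Mcpt2.

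For Tpsab1 primary tumour 2 given 20 Gy with isotype stood at 300.1 CPM (next 117.2). Unirradiated primary tumour 7 with isotype had 32.7 CPM of Kit (next 19.9), and unirradiated allograft 3 with isotype had 1.37 CPM of Ms4a2 (next 0.842).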

How the results depend on the processing

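The count of the 10 genes called moved by over 1.5 times in 10 fits with another setting and in 3 of 248 with 1 tumour left out; no fold change with an unadjusted p below 0.05 changed sign. In primary tumours given 20 Gy with isotype against 0 Gy with anti-PD-1 the 1 call, Mcpt2, held under every setting run, between -3.12 and -4.19 without 1 tumour. In allografts after 20 Gy with isotype the 2 calls became 1 with all 48 tumours in 1 fit and 0 with the identifier digit, and ran from 1 to 2 without 1 tumour. With anti-PD-1 they became 0 with all 48 tumours and 0 with only the 2 groups. For the allograft combination they became 1 with all 48 tumours. Between kinds without radiation, isotype, 0 calls became 1 with DESeq2, 1 with all 48 tumours and 1 with the muscle list, and ran from 0 to 1 without 1 tumour, a comparison with a group on which the set was chosen and so not read as a test; with anti-PD-1 they ran from 1 to 2, Mcpt2 having an adjusted p of 0.0470 without primary tumour 2. After 20 Gy DESeq2 gave 5 under isotype and 1 under anti-PD-1, the latter in primary tumours on which the set was chosen and so not read as a call. The cause was not tested. Over all genes, DESeq2 called 1530, 1664 and 2626 in the allograft dose and combination comparisons against 912, 703 and 1714 with edgeR, 2188 against 1407 in primary tumours with anti-PD-1, and 2868, 2756, 1875 and 1005 against 1738, 1560, 839 and 1 between kinds. With all 48 tumours in 1 fit the allograft isotype and combination counts were 372 and 851, the allograft anti-PD-1 count of 703 was 6.11 times smaller, the primary anti-PD-1 count 2156 and that between kinds after 20 Gy with anti-PD-1 1309. With the identifier digit the first was 196. With only the 2 groups the allograft anti-PD-1 and combination counts were 1 and 1075, the primary anti-PD-1 count 822 and the primary combination count 1384 against 2446. With the muscle list the anti-PD-1 counts between kinds were 647 without radiation and 16 after it, and with robust shrinkage the latter was 2. The other counts that moved by over 1.5 times lay between 0 and 5 in both fits. In the primary comparison on which the set was chosen, Mcpt2 moved to -4.55 with Cpa3 as a covariate, and Mcpt1 to -3.59 without combination tumour 3. Labels hold no shared replicate numbers. No paired analysis was possible because the numbers only name tumours. Depth limits Mcpt1 in primary tumours, at 0 to 87 reads, and Mcpt2 after radiation.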
